A study of Mus musculus with 6 samples.

Results

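Translation initiation factors are the proteins that bring the initiator tRNA, the messenger RNA and the ribosomal subunits together. The genes described here are those whose symbol starts with Eif and a digit from 1 to 6, which takes in the factors, the kinases that phosphorylate eIF2 (Eif2ak) and the eIF4E-binding proteins (Eif4ebp). There were 47 such genes with 133 probe sets that carried exactly 1 gene symbol, of 18193 genes with 34945 such probe sets on the array. Each gene was represented by its brightest probe set over the 6 arrays. Of the 47, 46 passed the filter on dim probe sets, and the exception was Eif4a3, whose 1 unshared probe set read 4.61 to 28.8. A further 6 probe sets named an Eif gene together with another gene (Eif3j1 with Eif3j2, Eif4ebp3 with Ankhd1, and copies of Eif4a3 and Eif1a) and were not used. Of these 6, the one named for Eif4a3 and Gm5576 read 1058 to 1524 over the 6 arrays. The dim readings of the unshared probe set thus do not show that Eif4a3 was low. Other factor genes, such as Eif2s1 and Eif4g1, were not analysed here.

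RNA came from dermal fibroblasts of newborn B6 mice (pups of 0 to 2 days in the sample labels and 0 to 3 days in the design text, both sexes mixed), grown out of skin explants and used at passage 6. By passage 5 the cells were split into a treated and an untreated culture, and the labels do not say which of these share cells. The Et1 group had 3 cultures with 100 nM synthetic endothelin 1, a peptide that signals through G-protein-coupled receptors, in the medium for 24 hours. The control group had 3 cultures in the same serum-containing medium with nothing added. The labels call them biological replicates and name no animals, so p-values measure the spread between these cultures. Values are Affymetrix MAS5 signals, scaled here so that every array had the same trimmed mean of 139. A signal can be compared between arrays for 1 probe set but not between probe sets.

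The arrays had 2% trimmed means of 91.7 to 179 before scaling. Of 11 dermal fibroblast markers 10 passed the filter, with summed signals of 19772 to 32658 in Et1 and 25739 to 40649 in control arrays. Of the 10, 8 had lower means in Et1, and Vim and Fn1 had higher ones, with a median log2 fold change of -0.47. None of the 10 was called, and 3 were lower at an unadjusted p under 0.05: the collagen gene Col3a1 (-1.26), the surface protein gene Thy1 (-1.18) and the receptor gene Pdgfrb, which averaged 753 ± 12.2 in Et1 and 1696 ± 450 in control arrays without overlap (SD, n = 3 each; -1.14, limma adjusted p = 0.0615). These 3 were called lower with a block on the replicate number, and also with a block on the spike-in split described next. Their part in the results was not tested. Summed signals of 8 keratinocyte markers were 421 to 505 in Et1 and 373 to 560 in control arrays. Of 5 endothelial markers 2 passed the filter, Cdh5 and Kdr, with overlap and log2 fold changes of 0.46 and 0.48. Pecam1, Tek and Vwf were too dim to test, and Pecam1 read 3.58 to 12.7 over all 6 arrays. Tek read 29.4, 18.3 and 30.3 in Et1 and 3.28, 9.10 and 8.17 in control arrays, without overlap. The part of endothelial cells in the results was not tested. The 2 Schwann cell markers summed to 109 to 131 in Et1 and 175 to 191 in control arrays, without overlap and with 0 called, and the part of such cells in the results was not tested. Macrophage, endothelial and melanocyte markers had overlapping sums. Probe sets for bacterial spike-in transcripts split the arrays, a split known from earlier results of these data. Their mean log2 signal was 4.75 to 5.64 on Et1 replicates 1 and 3 and control replicate 3 (the high set) and 3.45 to 3.57 on Et1 replicate 2 and control replicates 1 and 2 (the low set). Values within the low set thus rest on Et1 replicate 2 alone for Et1, and those within the high set on control replicate 3 alone for control. Col1a1, Col3a1 and Thy1 were called lower in the high set. The ratio of 3' to 5' signal of Gapdh, a sign of RNA quality, was 0.677 to 0.757 in Et1 and 0.728 to 0.775 in control arrays, and did not separate the sets.

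As background, eIF2 carries the initiator tRNA to the small ribosomal subunit and spends a GTP in each round. eIF2B recharges it by exchanging GDP for GTP. Under stress, kinases phosphorylate eIF2, which then blocks eIF2B, so that general initiation slows while a few messages such as that of Atf4 are translated more. eIF3 is the large scaffold on the small subunit, and the eIF4 factors recruit the message through its cap. The eIF4E-binding proteins hold eIF4E away from eIF4G until the kinase mTORC1 phosphorylates them. An array measures the messenger RNA of these genes and none of these phosphorylations.

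No member passed the test. Of the 46 genes, limma called 0 at an adjusted p of 0.05, where 0.346% of all 22519 tested probe sets were called (78, of them 22 higher, or 0.0977%). Nor was any of the 113 tested probe sets of these genes called. The smallest adjusted p was 0.127, for Eif4ebp1. With 3 arrays a group, the absence of calls does not show that these genes did not change. At an unadjusted p under 0.05, 5 members were higher and 1 was lower in Et1 cultures, where 5.94% and 6.38% of all tested probe sets were, and 6.93% and 6.53% of the brightest probe sets per gene. With the replicate number as a block, 0 members were called, where 2.52% of all tested probe sets were, with 0.755% higher in Et1. In an RNA extract of a whole culture, fewer cells of a kind and less RNA per cell cannot be told apart.

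The differences were small. The log2 fold changes ran from -0.73 for Eif2ak3 to 0.81 for Eif2b3, and 41 of 46 were under 0.5 in size, with a median standard error of 0.17. Means were higher in Et1 cultures for 33 members, or 71.7%, against 54.1% of all tested probe sets and 55.7% of the brightest per gene, of which 44.3% were lower. The median log2 fold change of the members was 0.16, against 0.03 for all tested probe sets and 0.05 for the brightest probe set of each of 11666 genes. The 3 Et1 signals lay all above the 3 control signals for 7 members and all below them for 1, which was 15.2% and 2.17% of the 46. The background was 9.46% and 8.11% of all tested probe sets, and 10.7% and 8.49% of the brightest per gene. In both directions together that is 17.4% of the members and 17.6% of all tested probe sets, so the members separated no more often than other genes.

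**Figure D1:**
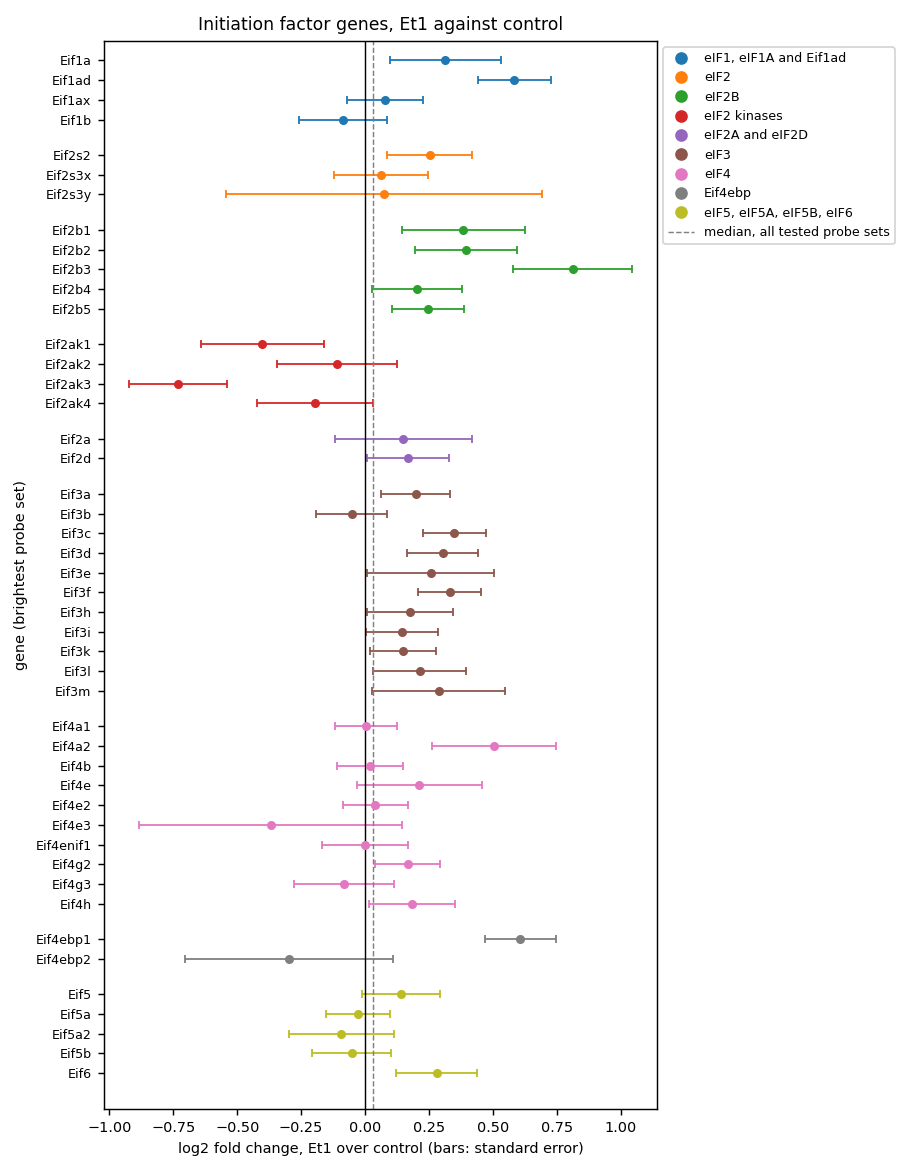
Log2 fold change (Et1 over control, x axis) of the 46 tested genes by factor, each as a point with its standard error from limma. Eif2b genes lie right of 0, Eif2ak genes left of 0, and eIF4 genes on both sides, and no gene passed an adjusted p of 0.05.

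The 3 genes of eIF2 subunits had log2 fold changes of 0.06 to 0.25, and none was called. Blocking on the spike-in set, their median of 0.07 became -0.0037 and 1 of 3 was higher. Both medians are the values of the Y-linked Eif2s3y, while Eif2s2 had 0.30 and Eif2s3x -0.02 with the block. The direction of the median thus rests on that gene and on how the split is treated. Eif2s2, the beta subunit, read 5699, 5437 and 3744 in Et1 cultures and 4006, 4273 and 4009 in control cultures. Of the Et1 signals 2 were above and 1 was below every control signal. Its log2 fold change was 0.25 (SE 0.17, limma adjusted p = 0.585), and 4 of its 5 other probe sets had the same sign. Dropping Et1 replicate 1 gave 0.14 and dropping Et1 replicate 3 gave 0.44. The one of opposite sign, at 174 to 216 in Et1 and 239 to 304 in control cultures, did not overlap and had -0.39. Eif2s3x, the X-linked gamma subunit, averaged 1929 ± 343 in Et1 and 1849 ± 323 in control cultures (SD, n = 3 each), a log2 fold change of 0.06 with a 95% interval of -0.35 to 0.48.

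Eif2s3y is the copy of the gamma subunit gene on the Y chromosome. It read 46.2, 147 and 213 in Et1 replicates 1 to 3 and 49.2, 145 and 174 in control replicates 1 to 3. The spread inside each group was more than 3 times, while the groups overlapped, at 136 ± 84.0 in Et1 and 123 ± 65.4 in control cultures (SD, n = 3 each). In both groups replicate 1 was the lowest and replicate 3 the highest. The 95% interval of its log2 fold change, -1.33 to 1.48, was the widest of the members described. With the replicate number as a block, the standard error was 0.17, against 0.62 without, at the same log2 fold change of 0.07.

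All 5 subunits of eIF2B, the exchange factor, had higher means in Et1 cultures, with log2 fold changes of 0.20 to 0.81 and a median of 0.38. That median was 0.24 blocking on the spike-in set, 0.23 without Et1 replicate 1 and 0.56 without Et1 replicate 2. Eif2b3, the gamma subunit of its catalytic part, stood farthest out. Eif2b3 read 785, 549 and 671 in Et1 cultures and 278, 394 and 488 in control cultures. Every Et1 signal was above every control signal. The log2 fold change was 0.81 (SE 0.23, limma adjusted p = 0.211), a fold of 1.76. Blocking on the spike-in set, it was 0.65 and passed (limma adjusted p = 0.0428), with 0.73 among low-set arrays and 0.57 among high-set arrays.

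Eif2b5, the catalytic epsilon subunit, read 499, 491 and 452 in Et1 and 386, 427 and 403 in control cultures. These groups did not overlap either, at a log2 fold change of 0.25 (SE 0.14). Eif2b2, of the regulatory part, averaged 819 ± 149 in Et1 and 622 ± 121 in control cultures (SD, n = 3 each), and its 3 probe sets had log2 fold changes of 0.40, 0.51 and 0.46. The signals of Eif2b2 overlapped, and they were higher on arrays of the high set by 0.47 (limma adjusted p = 0.00944). Eif2b1 and Eif2b4 had log2 fold changes of 0.38 and 0.20, both with overlap. The median of the 5 was 0.23 within the low set, where Eif2b1 alone was below 0, at -0.07, and 0.25 within the high set.

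All 4 eIF2 kinase genes averaged lower in Et1 cultures, and their median log2 fold change was -0.30. It was -0.18 with the spike-in block, -0.11 among low-set arrays, -0.42 among high-set arrays and -0.12 without Et1 replicate 1. Each kinase answers to its own stress: Eif2ak1 (HRI) to lack of heme, Eif2ak2 (PKR) to double-stranded RNA, Eif2ak3 (PERK) to unfolded proteins in the endoplasmic reticulum and Eif2ak4 (GCN2) to uncharged tRNA. Eif2ak3 was the 1 member whose Et1 signals lay below all control signals. It read 93.5, 85.3 and 123 in Et1 cultures and 170, 171 and 154 in control cultures. Its log2 fold change was -0.73 (SE 0.19, limma adjusted p = 0.163), with a 95% interval of -1.17 to -0.30. Blocking on the spike-in set, it was -0.76 (limma adjusted p = 0.0541), and it was -1.001 among low-set arrays and -0.52 among high-set arrays. These signals lie above the median of 41.0 over all probe sets, but their mean did not reach the 75th percentile of 147. The 2 other probe sets of Eif2ak3 were too dim to test.

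The other kinases overlapped between the groups. Eif2ak1 read 151, 253 and 163 in Et1 cultures and 253, 291 and 195 in control cultures. It was low on each array of the high set, by -0.58 (limma adjusted p = 0.0173), and its log2 fold change for Et1 was -0.40 without and -0.21 with that set as a block. Another probe set of Eif2ak1 read 165, 194 and 149 in Et1 and 235, 220 and 217 in control cultures, without overlap (log2 fold change -0.41, limma adjusted p = 0.365), and a dimmer one had 0.19. Eif2ak2 and Eif2ak4 had log2 fold changes of -0.11 and -0.20. Without Et1 replicate 1 these became 0.07 and 0.01, so the common direction of the kinases rests on that array for 2 of the 4, and without control replicate 3 Eif2ak2 stood at 0.08. Within the low set Eif2ak2 stood at 0.29 and within the high set at -0.59.

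Promoters of 4 of the genes without overlap are shown, chosen as the members with an unadjusted p under 0.05 and an entry in the promoter table. Each sequence is the 250 bases before the annotated start, written 5′ to 3′ along the gene, from RefSeq on GRCm38.p6. Capitals mark the motif CCAAT, or ATTGG where it lies on the other strand. The positions are chr6:70844265-70844514 on the plus strand for Eif2ak3, chr19:5366563-5366812 on the plus strand for Eif1ad, chr7:126566367-126566616 on the minus strand for Eif3c and chr7:108934165-108934414 on the plus strand for Eif3f.
Eif2ak3: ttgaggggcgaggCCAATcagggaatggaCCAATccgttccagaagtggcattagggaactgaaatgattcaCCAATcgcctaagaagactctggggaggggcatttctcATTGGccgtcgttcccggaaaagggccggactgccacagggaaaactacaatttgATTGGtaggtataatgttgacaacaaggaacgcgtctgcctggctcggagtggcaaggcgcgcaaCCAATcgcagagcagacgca
Eif1ad: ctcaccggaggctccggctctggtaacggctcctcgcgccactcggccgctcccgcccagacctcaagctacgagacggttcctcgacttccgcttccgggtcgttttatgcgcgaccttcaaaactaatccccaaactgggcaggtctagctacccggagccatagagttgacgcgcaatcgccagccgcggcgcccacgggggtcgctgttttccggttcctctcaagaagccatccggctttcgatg
Eif3c: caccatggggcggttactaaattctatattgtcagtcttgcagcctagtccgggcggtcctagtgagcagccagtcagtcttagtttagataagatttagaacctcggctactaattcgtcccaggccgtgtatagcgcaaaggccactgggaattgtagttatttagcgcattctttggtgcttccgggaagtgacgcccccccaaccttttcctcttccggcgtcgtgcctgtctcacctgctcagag
Eif3f: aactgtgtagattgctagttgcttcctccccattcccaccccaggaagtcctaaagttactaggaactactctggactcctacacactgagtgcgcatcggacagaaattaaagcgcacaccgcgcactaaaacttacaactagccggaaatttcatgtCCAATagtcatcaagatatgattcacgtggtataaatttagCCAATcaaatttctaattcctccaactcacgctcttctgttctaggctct

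The Eif2ak3 window held CCAAT 6 times on either strand. Only 19 of 32851 promoter windows in the table, or 0.0578%, held it 6 times or more, and none of the other windows of the members did. Eif3f held it 2 times, and Eif1ad and Eif3c 0 times. At least 1 CCAAT was found in 13 of 51 windows of 38 member genes, or 25.5%, against 33.8% of all windows. The GC box GGGCGG was found in 66.7% of the member windows and 32.7% of all, and the E-box CACGTG in 19.6% and 6.02%. Among the printed windows CACGTG occurs in that of Eif3f. The motif TGATGNAA, searched on both strands like the others and which ATF4 binds together with C/EBP factors, was in 1 member window, or 1.96%, against 3.45% of all. Some genes have several windows, these are matches of letters only, and Eif4ebp1 and Eif2b3 had no entry.

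The eIF4E-binding proteins had opposite signs. Eif4ebp1, a target of mTORC1 and of ATF4, read 2802, 3046 and 2717 in Et1 cultures and 1614, 1920 and 2114 in control cultures. Every Et1 signal was above every control signal, at a fold of 1.52. Its log2 fold change was 0.61 (SE 0.14, limma adjusted p = 0.127), with a 95% interval of 0.29 to 0.93. Blocking on the spike-in set, it was 0.59 and passed (limma adjusted p = 0.0341), with 0.79 among low-set arrays and 0.38 among high-set arrays. The brightest probe set of Eif4ebp1 ends in _x_at, so its probes may be shared with other transcripts. Leaving out all _x_at and _s_at probe sets gave Eif4ebp1 0.41 (limma adjusted p = 0.306). Of the other probe sets of Eif4ebp1, 1 also separated the groups, at 2212, 2091 and 1681 in Et1 and 1388, 1571 and 1519 in control cultures. A dim one overlapped at 0.21.

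Eif4ebp2, a second binding protein of eIF4E, differed between the spike-in sets. It read 205, 511 and 281 in Et1 replicates 1 to 3 and 478, 528 and 217 in control replicates 1 to 3. The 3 arrays of the high set were the 3 lowest, and the difference between the sets was -1.15 (limma adjusted p = 0.00089). Its log2 fold change for Et1 was -0.30 (SE 0.41), against 0.09 with the set as a block. The 3 other tested probe sets of Eif4ebp2 had the same sign as the brightest, from -0.16 to -1.14.

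**Figure D2:**
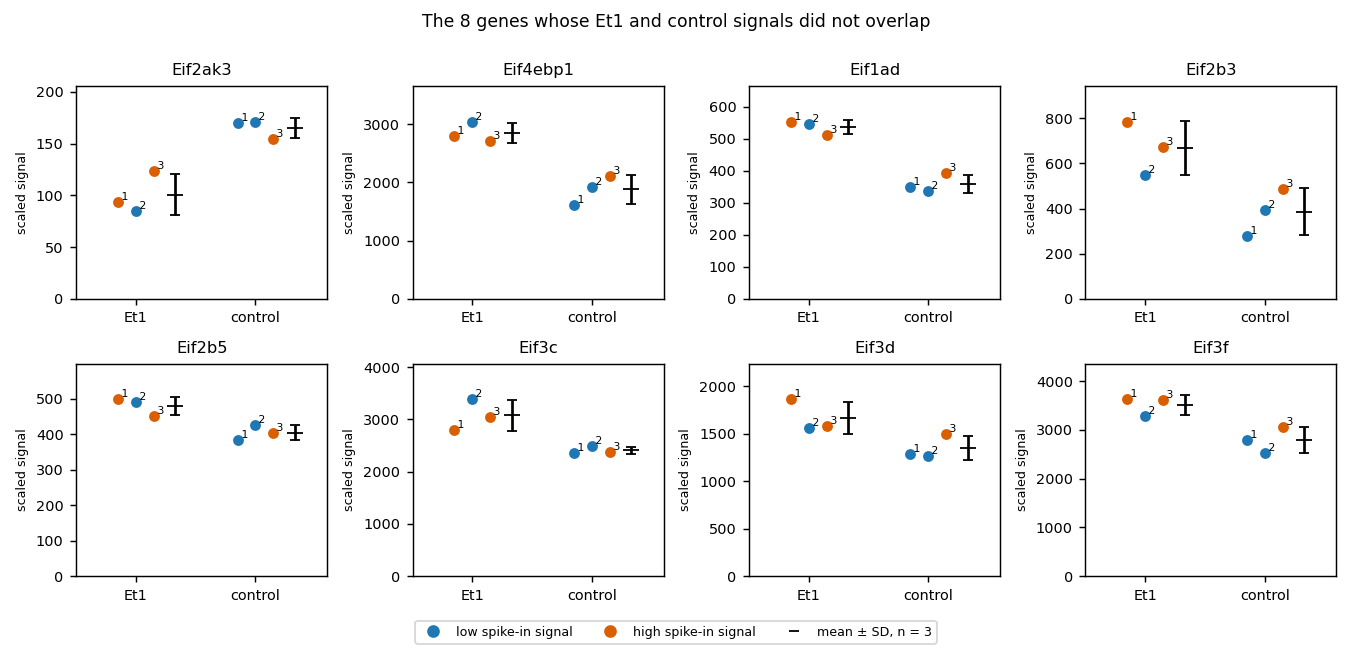
Scaled signal (y axis, from 0) on each array for the 8 genes whose groups did not overlap, Et1 left and control right, numbered by replicate, with mean ± SD (n = 3) and colour for the spike-in set. Eif2ak3 is lower in all 3 Et1 cultures and the other 7 genes are higher in all 3.

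eIF3 had higher means in Et1 cultures for 10 of 11 tested subunits. Their log2 fold changes ran from -0.05 to 0.35, and the median was 0.21. It was 0.18 among low-set arrays and 0.09 among high-set arrays, and 0.11 with the set as a block. Eif3c, of the core, read 2796, 3386 and 3044 in Et1 cultures and 2351, 2488 and 2378 in control cultures. The groups did not overlap, at a log2 fold change of 0.35 (SE 0.12, limma adjusted p = 0.298). The 3 other probe sets of Eif3c had the same sign, from 0.28 to 0.69, and 1 of them also separated the groups.

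Eif3f read 3628, 3280 and 3622 in Et1 and 2798, 2526 and 3061 in control cultures, a log2 fold change of 0.33 (SE 0.12, limma adjusted p = 0.336). Eif3d, which in human cells can bind the cap of certain messages, read 1862, 1560 and 1576 in Et1 and 1285, 1267 and 1494 in control cultures. Its groups did not overlap, at 0.30 (SE 0.14). Eif3a, the largest subunit, averaged 2860 ± 303 in Et1 and 2490 ± 238 in control cultures (SD, n = 3 each), a log2 fold change of 0.20. Eif3b, a partner of Eif3a in the core, was the 1 subunit with a lower mean, at 782 ± 72.5 in Et1 and 809 ± 33.4 in control cultures (SD, n = 3 each).

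The other subunits of eIF3 overlapped in their brightest probe sets, while the 1 other probe set of Eif3i had Et1 signals all above those of control. Of these subunits 4, Eif3e, Eif3h, Eif3l and Eif3m, were higher in the high spike-in set by 0.37 to 0.70 (limma adjusted p = 0.0325 to 0.00215). Eif3m read 1114, 745 and 1254 in Et1 and 668, 736 and 1162 in control cultures. The 3 highest of these are the 3 arrays of the high set. Its log2 fold change for Et1 was 0.29, and 0.06 with the set as a block. Eif3e likewise moved to 0.04 with the block, against 0.26 without it.

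The eIF4 factors centred on 0, with a median log2 fold change of 0.03 over 10 genes, 7 of them with higher means; with each array centred on its median it was -0.02 and 4 of 10 were higher. Eif4a1, the main RNA helicase of the group, read 4671, 4838 and 3931 in Et1 and 4373, 4701 and 4284 in control cultures. Its log2 fold change was 0.00, with a 95% interval of -0.28 to 0.28. Eif4e2, a cap-binding relative of eIF4E, averaged 843 ± 10.3 in Et1 and 819 ± 23.5 in control cultures (SD, n = 3 each), and its interval of -0.25 to 0.33 was about as narrow. Eif4b, a helper of the helicase, stood at 0.02 and Eif4g2, a relative of the scaffold eIF4G that does not bind the cap-binding protein, at 0.17.

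The second helicase, Eif4a2, had the smallest p of the group. It read 2737, 1790 and 2683 in Et1 and 1382, 1429 and 2329 in control cultures. All arrays of the high set were above all arrays of the low set, and the log2 fold change for Et1 of 0.50 (SE 0.24, limma adjusted p = 0.448) was 0.28 with the set as a block. Eif4e, the cap-binding protein itself, read 2152, 1652 and 2253 in Et1 and 1512, 1335 and 2553 in control cultures and showed the same order of sets, with 0.21 without and 0.00 with the block. The remaining members overlapped: Eif4e3 had 33.5 on Et1 replicate 1 and 93.6 or more on the other 5 arrays, and its 2 probe sets had opposite signs.

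The eIF1 and eIF1A genes were listed together with Eif1ad, named for its eIF1A-like domain, whose role in scanning was not tested. Of this list, Eif1ad differed most. It read 553, 545 and 512 in Et1 cultures and 349, 336 and 392 in control cultures. The groups were well apart, at a fold of 1.497 and a log2 fold change of 0.58 (SE 0.14, limma adjusted p = 0.144). Blocking on the spike-in set, it was 0.56 and passed (limma adjusted p = 0.0251), with 0.67 among low-set arrays and 0.44 among high-set arrays. The dimmer probe set of Eif1ad overlapped between the groups, at 0.23. Eif1ax and Eif1b, which help to select the start codon, had log2 fold changes of 0.08 and -0.09, and Eif1a, which was higher in the high set by 0.53 (limma adjusted p = 0.0114), had 0.31, against 0.14 with the set as a block.

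The late factors centred on 0, with a median log2 fold change of -0.03 over 5 genes. Eif6, which keeps the large ribosomal subunit from joining too early, read 1511, 1204 and 1361 in Et1 and 1093, 973 and 1299 in control cultures, a log2 fold change of 0.28 (SE 0.16, limma adjusted p = 0.523). Eif5a, which helps ribosomes through difficult stretches and carries the modified amino acid hypusine, averaged 5329 ± 635 in Et1 and 5414 ± 328 in control cultures (SD, n = 3 each). Eif5, which prompts eIF2 to spend its GTP, had 0.14 in its brightest probe set, and 3 of its 4 others had the opposite sign. The fourth read 344, 313 and 292 in Et1 and 225, 235 and 199 in control cultures, without overlap (log2 fold change 0.53, limma adjusted p = 0.227). Eif5b, which brings the subunits together, stood at -0.05. It had 2 other tested probe sets, 1 with Et1 signals all below those of control and 1 of opposite sign. Eif2d and Eif2a, which can deliver tRNA without eIF2, stood at 0.17 and 0.15. Both overlapped, while 1 of 3 other tested probe sets of Eif2d had Et1 signals all above those of control.

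**Figure D3:**
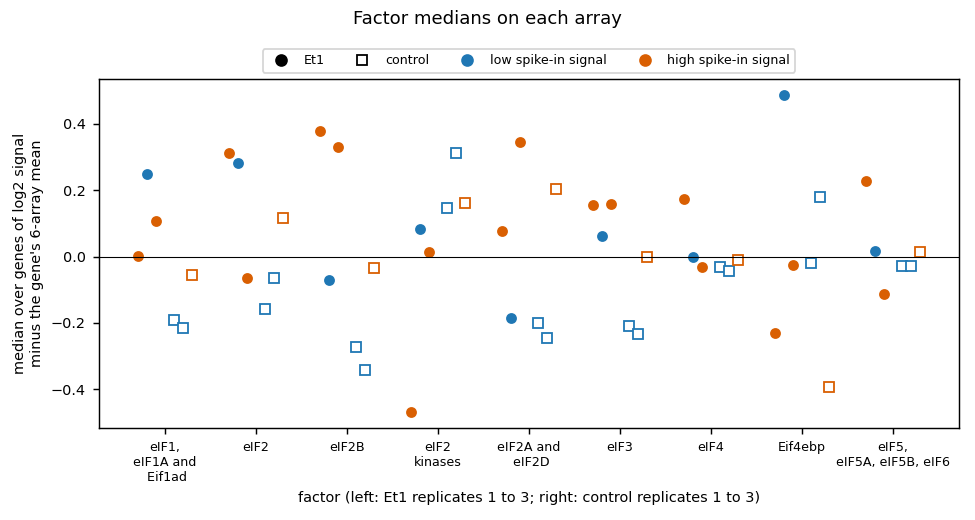
Median over the genes of each factor of the log2 signal minus the gene's mean over 6 arrays (y axis), with 1 point per array, Et1 left and control right in each column. The Et1 points of eIF3 and of the eIF1, eIF1A and Eif1ad column lie above those of control, and those of the eIF2 kinases lie below. In the other columns, which include eIF2B, eIF4 and Eif4ebp, the points of the groups overlap.

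Between the spike-in sets the members differed more often than between Et1 and control. With the group in the fit, limma called 13 of 46 members, 10 higher and 3 lower in the high set. That is 21.7% and 6.52% of the members, where 6.71% and 9.99% of all tested probe sets were called higher and lower. The 10 were Eif1a, Eif2a, Eif2b2, Eif3e, Eif3h, Eif3l, Eif3m, Eif4a2, Eif4e and Eif4h, and the 3 were Eif2ak1, Eif4g3 and Eif4ebp2. With the set as a block, limma called 3 of 46 members for Et1, Eif4ebp1, Eif1ad and Eif2b3, all higher, where 3.85% of tested probe sets were called, 1.39% higher and 2.47% lower. The median over all members was 0.13 within the low set, 0.04 within the high set and 0.07 with the block. What set these arrays apart was not tested.

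**Figure D4:**
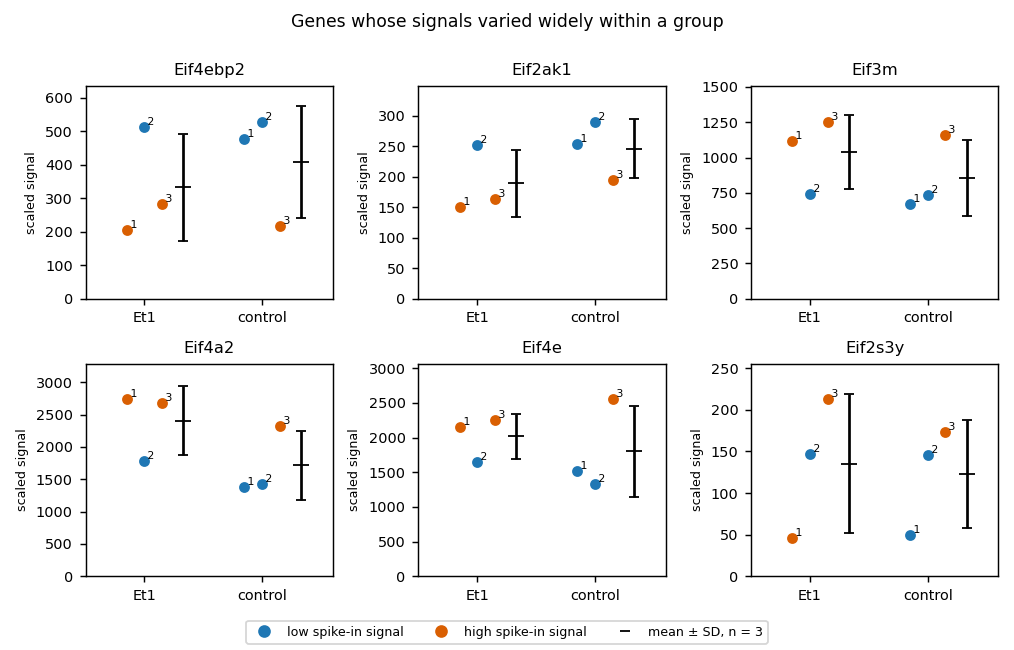
Scaled signal (y axis, from 0) on each array for Eif4ebp2, Eif2ak1, Eif3m, Eif4a2, Eif4e and Eif2s3y, Et1 left and control right, with mean ± SD (n = 3) and colour for the spike-in set. The first 5 genes follow the colours, and Eif2s3y is lowest on replicate 1 and highest on replicate 3 of each group.

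Genes that work with these factors were taken from 5 lists, with 70 of 72 genes tested and 3 called, all higher in Et1 cultures, where 0.0977% of all tested probe sets were called higher. The 3 belong to the list of genes known to respond when eIF2 is phosphorylated, mostly through ATF4. Of its 15 tested genes 12 had higher means, 11 separated the groups upwards, and the median log2 fold change was 0.82. Of the brightest probe sets per gene, 55.7% had higher means and 10.7% separated upwards. The list was chosen with earlier results of these data known, so its counts are no independent test against these shares. The smallest p belonged to Trib3, a pseudokinase that restrains ATF4, Vldlr, a lipoprotein receptor, Nupr1, a chromatin protein induced by stress, and Asns, the asparagine synthetase. Trib3 rose to 651 ± 106 in Et1 cultures, against 252 ± 16.5 in control cultures (SD, n = 3 each; log2 fold change 1.36, limma adjusted p = 0.0304). Vldlr and Nupr1 rose by 1.21 and 1.23, and Asns had 0.83 and just missed the threshold (limma adjusted p = 0.0503). The brightest probe sets of Vldlr and Asns end in _x_at. Leaving out all _x_at and _s_at probe sets, limma called 2 of the partner genes. With median centring, or without any of Et1 replicates 1 and 3 and control replicates 1 and 2, 0 of the 70 were called.

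The message of Atf4 itself, named after its value was seen, read 3331, 3582 and 2902 in Et1 and 2459, 2124 and 2303 in control cultures. The groups did not overlap (log2 fold change 0.51, SE 0.13, limma adjusted p = 0.161). In the other 4 lists limma called 0 genes. At an unadjusted p under 0.05, 6.93% of the brightest probe sets per gene were higher and 6.53% lower. In these lists 0 genes were lower at that threshold. Higher were 1 of 14 kinase and phosphatase partners and 1 of 20 mTORC1 and MNK genes. So were 2 of 16 poly(A) and recycling partners and 1 of 8 genes of the elongation list. Higher means were found for 9, 10, 13 and 7 of them, in the same order of lists. Partners of the kinases and of the eIF2 phosphatase had a median of 0.03 over 14 genes. Ppp1r15a, the stress-induced subunit that brings the phosphatase to eIF2 and a member of both this list and the ATF4 list, averaged 418 ± 14.6 in Et1 and 284 ± 58.1 in control cultures (SD, n = 3 each; 0.58). Abcf1, which binds eIF2, had 0.33, Bzw2, a mimic of eIF5, had 0.42 and, blocking on the spike-in set, 0.59 (limma adjusted p = 0.0258), and Dnajc3, an inhibitor of PKR and PERK, had -0.29.

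Genes of mTORC1 and MNK signalling to eIF4E had a median of -0.01 over 20 genes. Flcn, part of the machinery that senses amino acids for mTORC1, averaged 414 ± 108 in Et1 and 262 ± 43.5 in control cultures (SD, n = 3 each), at 0.64. Deptor, an inhibitor of mTOR, had -0.38, Sesn2, which restrains mTORC1 when leucine is short, 0.37 and Rps6, a ribosomal protein, 0.34. Partners that bind the poly(A) tail, recycle ribosomes or modify eIF5A had a median of 0.13 over 16 genes, with Denr, a factor of reinitiation, at 0.59 (0.42 with the spike-in block) and Pabpc4, a poly(A)-binding protein, at 0.38. Paip1, which links poly(A)-binding protein to eIF4A, stood at -0.26 and Dhps, the first enzyme of hypusine synthesis, at 0.33 (0.19 with that block). The elongation list held 8 genes with symbols starting with Eef, not all of them elongation factors (Eef2k is a kinase), and had a median of 0.14. Eef1b2 stood at 0.25, Eef1e1 at 0.45 (0.27 with the block), Eef1d at 0.22 (0.079 with the block) and Eef1a1 at 0.20. Denr, Dhps, Eef1e1 and Eef1d were called higher in the high set, and Bzw2 lower.

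**Figure D5:**
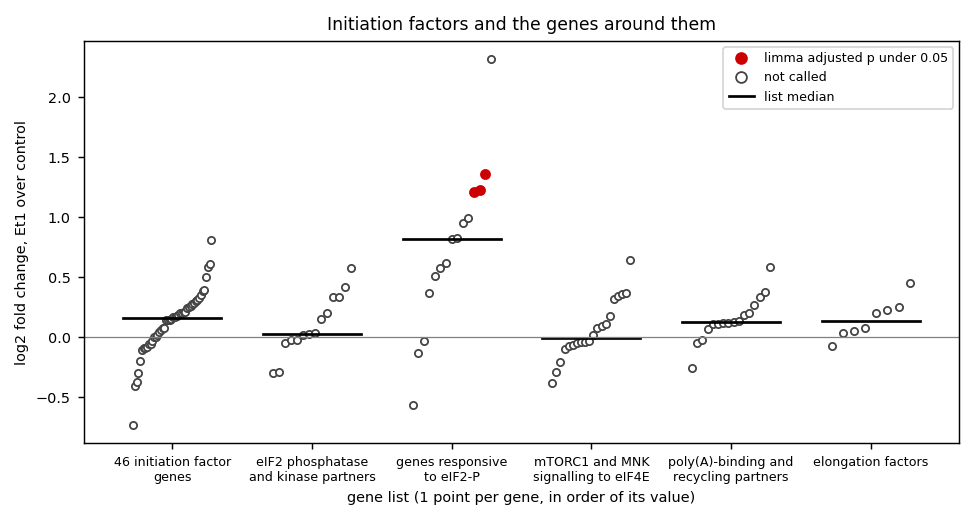
Log2 fold change (Et1 over control, y axis) of each tested gene in the initiation factor set and in 5 lists of genes around it, with the median as a line and called genes filled. The list of genes that respond to eIF2 phosphorylation lies highest, at a median of 0.82, and holds the 3 called genes. The lists were chosen with earlier results of these data known.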

How the data were processed

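RNA of 3 Et1 and 3 control cultures was biotin-labelled and hybridised to Affymetrix Mouse430_2 arrays. The authors deposited 1 intensity signal on a linear scale for each probe set. Per the submitters' processing notes the software was MAS5, with no version or target scaling stated there. The members and gene lists were chosen with earlier results of these data known.

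Each array was scaled to a common 2% trimmed mean (139), 4 zeros were set to the array's smallest positive value, and log2 was taken without a pseudocount, so fold changes of dim probe sets are sensitive to background. Of 45037 probe sets that are not Affymetrix controls, the 22519 with a mean at or above the median of 41.0 were tested with limma 3.58.1 in R 4.3.3 (eBayes with an intensity trend, no block) and Benjamini-Hochberg adjustment over them all. Gene symbols came from GEO's annotation of the platform (34945 with 1 symbol, 932 with several, 9160 with none), and the symbols of all 47 members matched RefSeq genes. Of the 46 tested members, 8 rest on probe sets ending in _x_at or _s_at, whose probes may be shared with other transcripts, and 15 of 32 with several tested probe sets had 1 or more of opposite sign. Every member could be named; full statistics went to every kinase and Eif4ebp gene and to the smallest p in each factor, and up to 4 genes a list were named by smallest p. Array data carry no counts, so 3 arrays a group limit the precision. On simulated data with independent noise for each probe set, limma called 2 of 50 planted 1.5-fold changes and 7 of 50 planted 2-fold changes. Their median estimates were 0.56 and 0.91 log2. Changes under 1.5-fold, the size of most member differences, were not planted. The deposited experiment settings were not used. Sequences are from RefSeq (GRCm38.p6).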

Additional observations from a re-analysis of the deposited data

How the results depend on the processing

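Under every other setting but the spike-in set block, 0 of the member genes were called, and that block called 3 (Eif4ebp1 at 0.59, Eif1ad at 0.56 and Eif2b3 at 0.65). The adjusted p of Eif4ebp1 ran from 0.0341 with that block to 0.532 without control replicate 1. Over all probe sets the count of 78 became 44 with median centring (7 of them higher, against 22 of 78), 40 with no filter, 7 without an intensity trend and 868 with the spike-in set block. Leaving out 1 array gave 4 to 229 calls over all probe sets, with 4 when control replicate 1 or 2 was dropped, 229 for control replicate 3, and 10, 46 and 6 for Et1 replicates 1, 2 and 3. For the partner genes of the 5 lists, 3 calls became 5 with the filter at the 75th percentile and 2 without _x_at and _s_at probe sets. They became 0 with median centring or without the trend, 10 with the spike-in set block, and 0 to 5 with an array left out. A replicate block on the replicate number gave 567 calls over all probe sets, 6 among the partner genes and 0 among the members (smallest adjusted p 0.0572). Same-numbered Et1 and control arrays had correlations of their deviations from the group means of -0.12, 0.44 and 0.45, and not every array correlated best with its own number. Among the factor medians, that of eIF3 was 0.11 with the spike-in set block, 0.088 within the high set and 0.13 to 0.34 with an array left out, that of all members 0.067, 0.038 and 0.11 to 0.23. That of the scanning factors was 0.069 with probe sets averaged per gene, 0.028 within the high set and 0.13 to 0.30 with an array left out, and that of eIF2 -0.0037 with the spike-in set block, 0.39 within the low set, 0.0061 within the high set and 0.11 to 0.28 with an array left out. Leaving out an array gave 0.23 to 0.56 for eIF2B and -0.43 to -0.12 for the kinases. Of 231 values of the 13 genes given full statistics, 224 kept their direction and 7 did not. These were Eif4ebp2 at 0.085 with the block, 0.024 among low-set arrays and 0.15 among high-set arrays, Eif2ak2 at 0.29 within the low set, at 0.069 without Et1 replicate 1 and at 0.076 without control replicate 3, and Eif2ak4 at 0.013 without Et1 replicate 1. With an array left out Eif2ak2 ran from -0.22 to 0.076 and Eif2ak4 from -0.35 to 0.013. The cause of these shifts was not tested. The 4 kinases had standard errors of 0.19 to 0.24, against a median of 0.17 over the members, which limits what can be seen of them. Only Eif2ak1 of them was kept by the filter at the 75th percentile.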

Other observations

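The order of Eif2s3y among the replicates was shared by the brightest probe set of another Y-linked gene. Uty, a histone demethylase gene of the Y chromosome, read 38.5, 71.8 and 126 in Et1 replicates 1 to 3 and 26.0, 51.7 and 80.2 in control replicates 1 to 3 in its brightest probe set. Another tested probe set of Uty read 37.1, 47.1 and 65.1 in Et1 and 19.6, 62.7 and 55.5 in control replicates, highest on control replicate 2. Kdm5d, also Y-linked, read 28.2, 133 and 72.9 in Et1 and 26.2, 92.0 and 47.6 in control replicates in its brightest probe set. These were lowest on replicate 1 and highest on replicate 2 of each group. Another tested probe set of Kdm5d read 59.5, 64.8 and 37.5 in Et1 and 41.9, 48.0 and 41.4 in control replicates, lowest on replicate 3 of each group. Xist, the RNA of the inactive X chromosome, read 534, 240 and 386 in Et1 and 324, 174 and 322 in control replicates, lowest on replicate 2 of each group in its brightest probe set. Its other tested probe set read 207, 112 and 134 in Et1 and 119, 97.1 and 85.6 in control replicates, lowest on control replicate 3. These values were looked at after those of Eif2s3y were seen. The labels give the cultures as mixed in sex and do not say whether control and Et1 cultures of 1 number came from the same pups.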
